A study of Mus musculus with 10 samples.

Results

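The genes described here encode the protein subunits of the cytosolic ribosome. They were picked by symbol from the GENCODE annotation of the mouse genome build mm10: protein-coding genes on chromosomes 1 to 19 whose symbol is Rpl or Rps followed by a digit, without the ribosomal S6 kinases (Rps6k) and without symbols that contain -ps, the mark of pseudogenes. The rule found 78 genes among 20807 protein-coding genes on these chromosomes. Of the 78, 46 carry an Rpl symbol (large subunit) and 32 an Rps symbol (small subunit), and 69 form the standard set of subunits. The other 9 are Rpl3l, Rpl7l1, Rpl10l, Rpl22l1, Rpl36al, Rpl39l, Rps27l, Rps27rt and Rps19bp1, which are paralogs, retrotransposed copies or, for Rps19bp1, a nucleolar protein that binds Rps19. The genes lie on 18 chromosomes, with 13 on chromosome 7, 8 on chromosome 17, 7 on chromosome 11 and none on chromosome 19.

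Ribosomal proteins assemble with ribosomal RNA into the small subunit, which reads the mRNA, and the large subunit, which joins the amino acids. Growing cells need the proteins in matched amounts and transcribe their genes heavily, from short genes with CpG-rich promoters. Transcripts of these genes typically begin inside a run of pyrimidines, the 5′ terminal oligopyrimidine (TOP) start, through which mTOR signalling sets how well they are translated. Trimethylation of lysine 4 on histone H3 (H3K4me3) marks the nucleosomes at active and poised promoters, mostly on the transcribed side of the start, and ATAC-seq cuts the nucleosome-poor DNA at the start itself.

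The cells were F123, an F1 line of mouse embryonic stem cells (Mus musculus castaneus x S129/SvJae), untreated and grown with LIF on irradiated CF1 fibroblasts before a feeder-free passage. H3K4me3 ChIP-seq was made from 2 biological replicates of 2000000 fixed cells each, and ATAC-seq from 2 biological replicates of 100000 cells each. Each assay was deposited as 1 peak list that stands for both replicates, so no value below has a spread between replicates, no test over samples could be made, and all come from 1 cell line in 1 condition. The PLAC-seq and input samples of the study are not analysed here.

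The H3K4me3 list held 33487 peaks and the ATAC-seq list 179109, with positions but no read numbers, so the sequencing depth behind a peak is unknown. As a check of the cell type, the pluripotency genes Pou5f1, Nanog, Sox2 and Zfp42 each had a peak of both kinds at the start, and Alb, the liver gene for albumin, had neither. The collagen genes Col1a1 and Col1a2, which fibroblasts express, also had both, with H3K4me3 fold enrichments of 13.9 and 20.4. Whether feeder cells added to any peak was not tested.

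An H3K4me3 peak within 1 Kb of the annotated start was found for 76 of the 78 ribosomal protein genes (97.4%), against 66.4% of all coding genes. An ATAC-seq peak was found for 73 (93.6%), against 72.2%. Both kinds of peak were present at 73 genes, against a share of 65.6% in all coding genes, and neither at 2, against 27%. By subunit, 45 of 46 Rpl genes and 31 of 32 Rps genes had an H3K4me3 peak, and 44 and 29 had one in ATAC-seq. The start used is the 5′ end of the gene record in GENCODE, and a peak counts when at least 1 bp of it lies in the window.

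The 5 genes short of a peak were Rpl17, Rps27rt, Rps2, Rps10 and Rpl3l, the last 3 lacking the ATAC-seq peak alone. Rpl17, Rps2 and Rps10 encode standard subunits, and Rps10 is also a Diamond-Blackfan anaemia gene. For these 3 the record begins upstream of another annotated coding start of the same gene, and the peaks lie at that other start. The nearest H3K4me3 peak to the Rpl17 record start was 1033 bp away, at chr18:74999591-75003593, with a width of 4003 bp and a fold enrichment of 46.6, and an ATAC-seq peak of 656 bp lay inside it. At Rps10 the H3K4me3 peak began 852 bp inside the record, and an ATAC-seq peak of 619 bp lay at the other starts. At Rps2 the H3K4me3 peak began 283 bp inside the record, and the ATAC-seq peak at the other starts was 754 bp wide. With every annotated coding start of a gene allowed, the share with an H3K4me3 peak was 98.7% and that with an ATAC-seq peak 97.4%.

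Rps27rt and Rpl3l remained without an ATAC-seq peak with every coding start allowed. Rps27rt is a retrotransposed copy of Rps27 on chromosome 9, of 374 bp, and its nearest H3K4me3 and ATAC-seq peaks were 3084 and 3009 bp from its start. Rpl3l is the muscle paralog of Rpl3. Its H3K4me3 peak, at chr17:24728287-24728816, began 467 bp inside the gene, spanned 530 bp and had a fold enrichment of 4.50, and the nearest ATAC-seq peak was 3209 bp away. Both values of the peak are the lowest of the 76 genes.

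**Figure D1:**
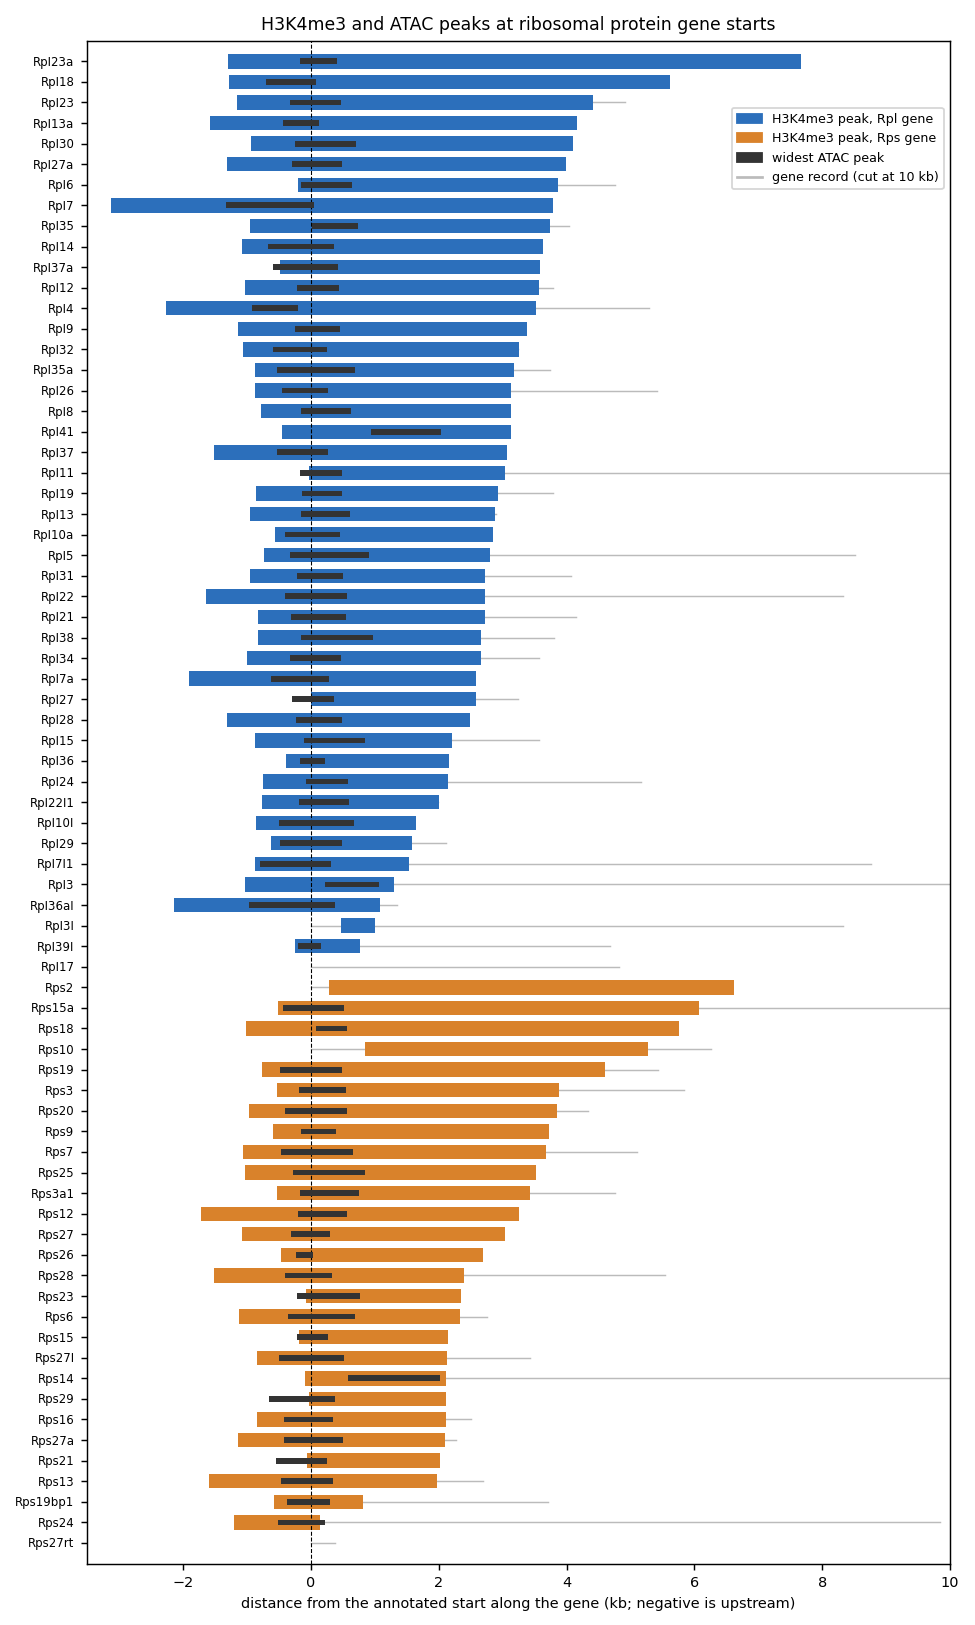
Extent of the strongest H3K4me3 peak (coloured bar) and of the widest ATAC-seq peak (dark bar) along the genes shown, in Kb from the annotated start, with the gene record as a grey line. The coloured bars run further to the right (into the gene) than to the left at the genes drawn other than Rps24 and Rpl36al, and Rpl17 and Rps27rt have no bar.

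Widths and strengths were then compared with those of all coding genes that had a peak. The strongest peak in the window, by the fold enrichment over background that the authors' peak caller gave, stands for its gene. The peaks of the 76 ribosomal protein genes had a median width of 3869 bp (quartiles 2974 and 4605 bp), against 2168 bp (1594 and 2876 bp) for the 13806 coding genes with a peak, a ratio of medians of 1.78. Their median fold enrichment was 45.4 (38.7 and 51.1), against 31.0 (20.6 and 40.5), a ratio of 1.46. The median −log10 q of the peak caller was 698 against 462.

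Most of these genes lay in the upper part of both distributions. By width, 70 of the 76 lay above the coding median (50% of coding genes do), 60 in the widest 25% and 41 in the widest 10%. By fold enrichment, 72 lay above the median (50%) and 53 in the top 25%. The 6 genes below the median width were Rps29, Rps21, Rps19bp1, Rps24, Rpl39l and Rpl3l, and the 4 below the median fold enrichment were Rpl37a, Rpl10l, Rpl39l and Rpl3l.

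**Figure D2:**
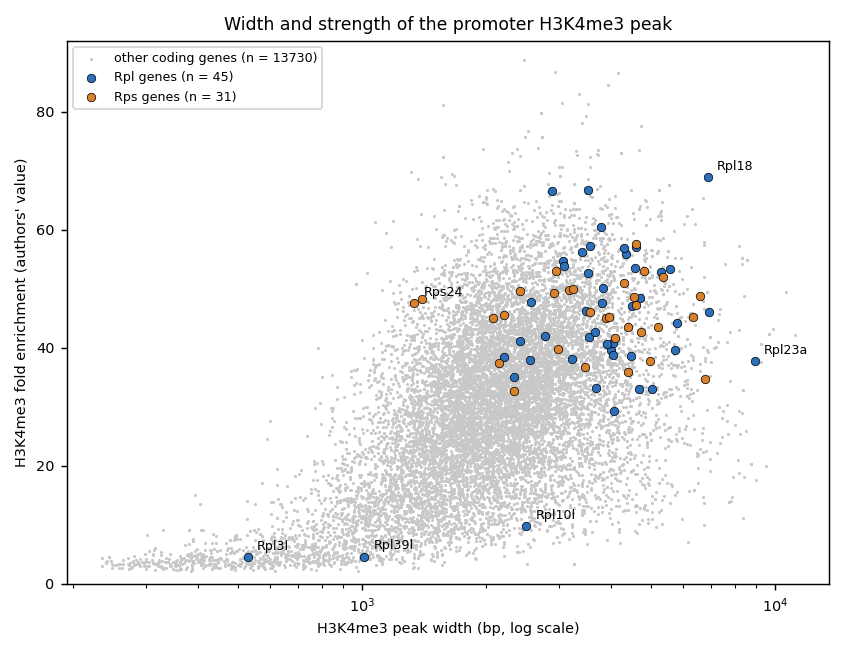
H3K4me3 peak width (bp, log axis) against the authors' fold enrichment for the other coding genes (grey), 45 Rpl genes (blue) and 31 Rps genes (orange), 1 point per gene. Most coloured points lie in the right-hand part of the grey cloud at medium to high fold enrichment, with Rpl3l, Rpl39l and Rpl10l at the bottom.

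Among the highest fold enrichments were those of large subunit genes of the standard set. Rpl18, a large subunit gene mutated in some Diamond-Blackfan anaemia families, had 68.9, above 99.7% of coding genes with a peak. Rpl24, the gene of the belly spot and tail mouse mutant, had 66.5, and Rpl19 had 60.4. Rpl19 also had the highest −log10 q of the 76, 1131.

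At the low end, 3 of the 5 genes were paralogs. Rpl3l had 4.50 and Rpl39l, the male germ cell paralog of Rpl39, had 4.58, with a width of 1013 bp. Rpl10l, the testis retrogene copy of Rpl10, had 9.74 over a peak of 2500 bp and an ATAC-seq peak of 1179 bp, so both kinds of peak were of usual width or more while the H3K4me3 enrichment was above that of 8.60% of coding genes with a peak. The lowest standard subunits were Rpl37a of the large subunit, at 29.2, and Rps15 of the small subunit, at 32.7, both close to the coding median of 31.0.

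The widest peak was that of Rpl23a, whose protein lines the exit of the peptide tunnel. It ran over 8962 bp (chr11:78175918-78184879), above 99.9% of coding genes with a peak, at a fold enrichment of 37.7, and it also covered the starts of Nek8 and Tlcd1. Rpl7 followed with 6927 bp and covered the start of Rdh10, Rpl18 with 6895 bp covered that of Sphk2, and Rps18 with 6770 bp covered those of B3galt4 and Vps52. Rps15a, the fifth, had 6591 bp without another coding start in it.

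Shared peaks were more frequent among these genes than among coding genes at large. The peak of 22 of the 76 genes (28.9%) covered the start of another coding gene, against 19% of coding genes with a peak, and another coding start lay within 1 Kb of 16 of the 78 (20.5%), against 12.9%. With the 22 left out, a choice made after the data were seen, the median width was 3671 bp against 2041 bp for coding genes whose peak covered no other start. By construction, a wider peak can take in more neighbouring starts. Another coding start within 1 Kb was not particular to this set. Its share was 43.6% in mitochondrial ribosomal protein genes, 23.1% in proteasome subunit genes and 22.6% in translation factor genes.

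The narrowest peaks after Rpl3l and Rpl39l were those of Rps24 and Rps19bp1. The Rps24 record, of a small subunit gene mutated in Diamond-Blackfan anaemia, starts 67 bp from the divergent gene Polr3a, and the peak there spanned 1340 bp, with its summit 252 bp upstream and a fold enrichment of 47.5. A second H3K4me3 peak, of 5352 bp and 59.8, lay over the other annotated Rps24 starts at chr14:24490154-24495505, about where RefSeq places the start, 3553 bp downstream. The Rps19bp1 peak was narrow, at 1396 bp, with a fold enrichment of 48.2. Rps21 was next with 2071 bp.

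Of the 8 well-studied subunits taken as examples, Rps19 and Rps3 had peaks wider than the median of the set, 3869 bp, and the others narrower ones. Rps19, the gene most often mutated in Diamond-Blackfan anaemia, had a peak of 5369 bp with a fold enrichment of 51.9 and an ATAC-seq peak of 971 bp. Rpl5 and Rpl11 encode the proteins that, with a small ribosomal RNA, bind the p53 regulator Mdm2. Their widths were 3531 and 3076 bp and their fold enrichments 52.6 and 54.7.

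Rps6, the target of the S6 kinases, had a width of 3472 bp, a fold enrichment of 36.7, below the lower quartile of the set, and an ATAC-seq peak of 1047 bp. Rpl38, needed for translation of Hox mRNAs and altered in the Tail-short mouse, had 3495 bp, a fold enrichment of 46.2 and an ATAC-seq peak of 1127 bp. Rps27a, made as a fusion with ubiquitin, had 3240 bp and 50.0. Rps3, at the mRNA entry of the small subunit, had 4418 bp and 43.5. Rpl10a, which not all ribosomes carry, had 3417 bp and 56.2. All 8 exceeded the coding medians in both width and fold enrichment.

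Most of the extra width lay on the transcribed side. Measured along the strand, the peaks reached a median of 876.5 bp upstream of the start, against 684 bp for coding genes, and 2903 bp downstream, against 1389 bp, a ratio of 2.09. The downstream reach exceeded the upstream reach at 74 of 76 genes, against 82.9% of coding genes, the exceptions being Rps24 at its record start and Rpl36al. The summit sat a median of 355.5 bp downstream, against 215 bp, and was downstream at 72 of 76 genes, against 85.1%. It fell in an exon at 47 genes, in an intron at 25 and outside the gene at 4, which were Rpl36al, Rpl7a, Rps12 and Rps24. In proteasome subunit genes the shares with a longer downstream reach and with a downstream summit were both 94.4%, against 97.4% and 94.7% here. They were 86.2% and 89.7% in translation factor genes and 79.2% and 81.8% in mitochondrial ribosomal protein genes.

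Because some records begin upstream of the main start, the reach was also taken from the RefSeq start. The peak remained the one assigned at the record start. Among the 58 genes with both a RefSeq promoter and a peak, the median downstream reach was again 2903 bp, against 1307 bp in 10563 coding genes, a ratio of 2.22. The RefSeq start lay inside that peak at 55 of the 58 genes and at 9666 of the coding genes. Both medians thus include starts outside the peak, as at Rps24. The upstream reach was 922.5 bp against 779 bp. In the 45 genes whose RefSeq start lay within 100 bp of the record start, it was 2768 bp downstream against 1335 bp.

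**Figure D3:**
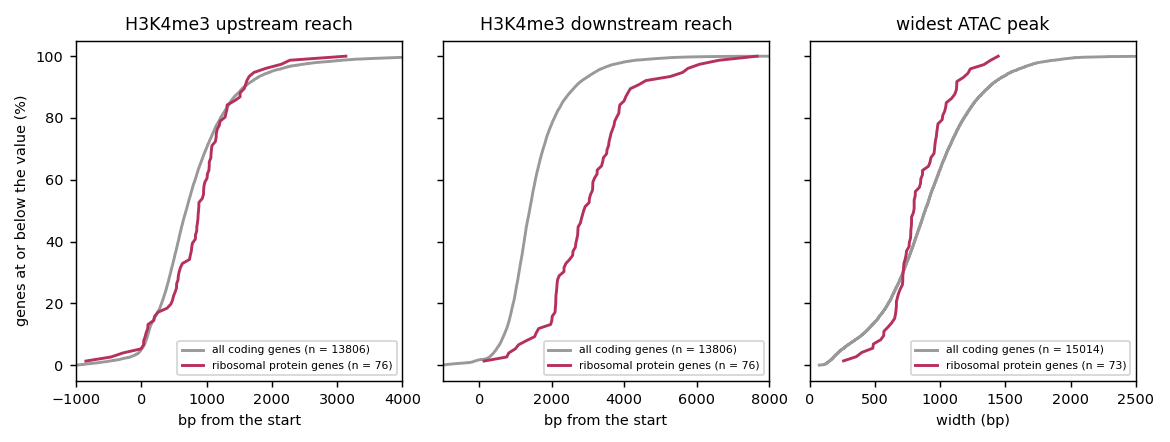
Cumulative share of genes (%) by H3K4me3 reach upstream of the start, by H3K4me3 reach downstream of it and by width of the widest ATAC-seq peak, each in bp, for ribosomal protein genes (red) and all coding genes with the peak (grey). The red curve is shifted to the right by far the most in the downstream panel, where the medians are 2903 and 1389 bp, and is steeper than the grey one in the ATAC-seq panel.

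Ribosomal protein genes are short, and their peaks covered much of the gene. The median record length of the 78 was 3329 bp, against 17629 bp for all coding genes. The H3K4me3 peak covered a median of 89.4% of the record, against 5.46%. It covered the whole record at 32 of 76 genes (42.1%), against 2.1% of coding genes with a peak, and reached the 3′ end at 33 (43.4%), against 2.41%.

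The difference in width was of similar size among short and long genes. Among records of 5 Kb or less, a limit chosen after the data were seen, 58 ribosomal protein genes had a median width of 3820 bp against 2171 bp in 1731 coding genes. Their median fold enrichment was 45.6 against 25.6, and the whole record was covered at 31 (53.4%) against 16.6%. The 18 ribosomal protein genes over 5 Kb had a median width of 3955 bp against 2168 bp. Across the 76 genes the Spearman correlation of width with record length was 0.169, against 0.0472 across 13806 coding genes.

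In several long records the peak took up a small part, and in that of Rps15a a larger one. The Rpl11 record spans 25164 bp and its peak covered 12.1% of it, ending 3041 bp from the start. Rpl5, of 8504 bp, was covered over 32.9%, with the peak ending 2794 bp from the start. Rpl3, of 14078 bp, was covered over 9.23%, and Rps14, of 31449 bp, over 6.73%. The Rpl3 peak also covered the start of Syngr1, 534 bp from the record start, and the Rps14 peak that of Ndst1, 1552 bp away. With every annotated coding start allowed, Rpl3 and Rps14 each had 2 H3K4me3 peaks, of which the stronger is the one given. Their annotated coding starts spanned chr15:80080481-80091868 for Rpl3 and chr18:60747098-60776239 for Rps14. In both genes the second peak lay within 1 Kb of a coding start other than the record start. It is not counted in the share covered. Rps15a, of 11817 bp, was covered over 51.4%, with a peak that ended 6074 bp from the start.

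ATAC-seq peaks did not share the extra width. The widest ATAC-seq peak in the window had a median of 801 bp (quartiles 711 and 974 bp) at the 73 genes, against 885 bp (663 and 1119 bp) at 15014 coding genes, and 27 of the 73 lay above the coding median (49.9% of coding genes do). Against coding genes with records of 5 Kb or less, whose median was 800 bp, the 57 ribosomal protein genes of that length were level, at 801 bp. The range ran from 260 bp at Rps26, a small subunit gene, to 1445 bp at Rps14, and the middle quartiles were closer together than in coding genes. The Rps14 peak had its midpoint 1300 bp downstream of the record start and lay over the start of Ndst1, 1552 bp from that record start.

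Accessible DNA lay over the start itself. An ATAC-seq peak covered the start at 70 of 73 genes, against 88.1% of coding genes with an ATAC-seq peak, and more than 1 ATAC-seq peak lay in the window at 18 (24.7%), against 24%. More than 1 H3K4me3 peak lay in the window at 7 of 76 (9.21%), against 6.6%. Among them were Rpl27, Rpl36, Rps15a, Rps21, Rps23 and Rps29, and 5 of the 7 were small subunit genes. At Rpl27 the stronger peak began 8 bp inside the gene.

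Within the set, the relation of width to strength depended on the measure and on the genes outside the standard set. The Spearman correlation of H3K4me3 width with fold enrichment was 0.135 over 76 genes and -0.0173 over the 68 standard subunits with a peak, against 0.496 over 13806 coding genes. The Pearson correlation of the logarithms was 0.549 over the 76, 0.0243 over the 68 and 0.635 over the coding genes. The Spearman correlation of H3K4me3 width with ATAC-seq width was -0.0384 over 73 genes, against 0.414 over 13639. These are descriptions across genes of 1 list for each assay, and genes are not replicates.

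The medians of the large and small subunit genes were close to each other. Large subunit genes had a median H3K4me3 width of 3806 bp, a fold enrichment of 44.2, a downstream reach of 2883 bp and an ATAC-seq width of 798 bp. Small subunit genes had 3964 bp, 45.4, 3034 bp and 801 bp. The 18 Diamond-Blackfan anaemia genes of the set, a red cell aplasia of reduced ribosome production, all had H3K4me3 at the start and 17 an ATAC-seq peak. Their median width was 4031 bp and their median fold enrichment 47.4, against 4014 bp and 46.0 for the 50 other standard subunits with a peak.

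The standard set and the 9 other genes differed more. The 68 standard subunits with a peak had a median width of 4031 bp and a median fold enrichment of 46.1. For the 8 others with a peak the medians were 2455 bp and 39.0, with a downstream reach of 1308 bp, below the coding median of 1389 bp. Their median ATAC-seq width, over 7 genes, was 1020 bp against 798 bp in the standard set.

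The 9 were not uniform. Rpl22l1, the paralog of Rpl22, had 2769 bp and a fold enrichment of 41.9. Rps27l, a paralog of Rps27 that p53 induces, had 2979 bp and 39.8. Rpl7l1, a nucleolar relative of Rpl7, had 2409 bp and 41.2. Rpl36al, a paralog of Rpl36a, had 3227 bp and 38.1, with 2140 bp of the peak upstream, over the start of Mgat2 74 bp away. These 4 were above the coding medians in width and fold enrichment, whereas Rpl3l, Rpl39l and Rpl10l had fold enrichments under 10.

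Other gene sets gave a point of comparison. The mitochondrial ribosome has its own proteins, encoded by 78 Mrpl and Mrps genes on the same chromosomes. Of these, 77 had a peak of each kind, but the median width was 2040 bp, the downstream reach 1247 bp and the fold enrichment 37.9, with an ATAC-seq width of 804 bp. The mitochondrial set thus had narrower H3K4me3 peaks than the cytosolic set at the same ATAC-seq width.

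Proteasome subunit genes and translation factor genes lay between in width and fold enrichment, but not in −log10 q, where their medians were 695 and 700 against 698 for the ribosomal protein genes. Of 39 proteasome genes, which encode the main protein-degrading complex, 36 had an H3K4me3 peak, with a median width of 2363 bp and a fold enrichment of 41.1. Of 62 genes for initiation and elongation factors, 58 had one, with 2764 bp and 42.3. The widest 25% of coding genes held 60 of 76 ribosomal protein genes, 10 of 77 mitochondrial ribosomal, 5 of 36 proteasome and 26 of 58 translation factor genes. The top 25% by fold enrichment held 53, 30, 19 and 33 of them, so the sets were closer in strength than in width.

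**Figure D4:**
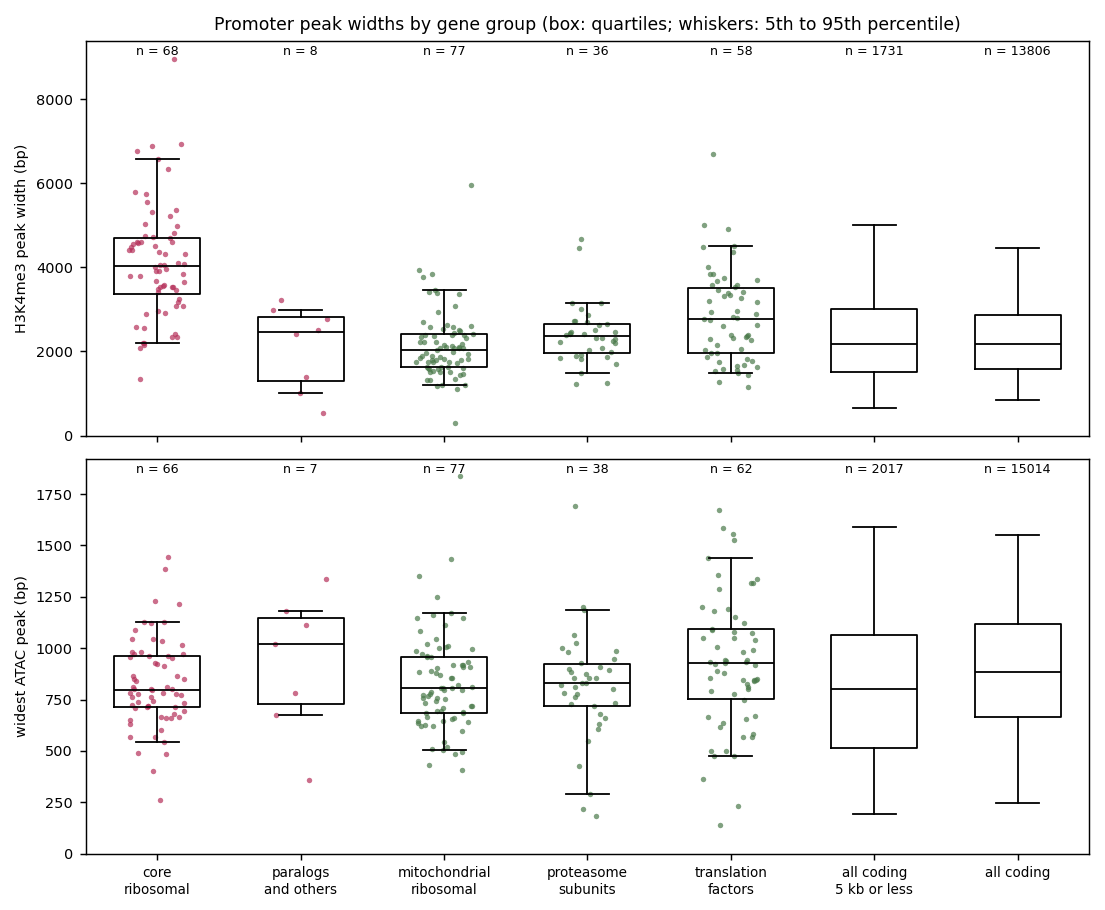
H3K4me3 peak width (top, bp) and widest ATAC-seq peak (bottom, bp) for groups of genes with a peak, with points for single genes, boxes for medians and quartiles and whiskers for the 5th to 95th percentile. The standard ribosomal set has the highest H3K4me3 box, with a median of 4031 bp, while its ATAC-seq box is level with that of the mitochondrial ribosomal genes.

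The promoter DNA under these peaks was read from RefSeq on GRCm38.p6, the same build, as 250 bases before the RefSeq start and 50 after it. A promoter was at hand for 59 of the 78 genes, and 55 of the 59 starts lay inside the gene's H3K4me3 peak. Among those not used here were Rpl17, Rpl21, Rpl23a, Rpl29, Rpl3, Rpl30, Rpl32, Rpl36, Rpl7, Rpl8, Rps14, Rps20, Rps27a and Rps29. Of the 59 RefSeq starts, 46 were within 100 bases of the record start, and at Rpl18 the RefSeq start lay 2614 bp downstream of the record start, near the H3K4me3 summit at 3005 bp.

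The stretch from 70 bases before the RefSeq start to 30 bases from it onward is printed 5′ to 3′ on the gene's strand, with the longest unbroken pyrimidine run between 50 bases before the start and 30 bases after it in capitals. The first 5 are subunits with a run of 10 or more bases over or next to the start: the gene of highest H3K4me3 fold enrichment, the large subunit genes Rpl27a and Rpl28, and the fixed examples Rps6 and Rpl38. They are at chr7:45718001-45718100 (plus strand), chr7:109519125-109519224 (plus), chr7:4792895-4792994 (plus), chr4:86857338-86857437 (minus) and chr11:114668510-114668609 (plus).
Rpl18: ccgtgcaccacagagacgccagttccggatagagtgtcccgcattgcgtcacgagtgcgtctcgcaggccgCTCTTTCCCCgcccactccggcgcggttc
Rpl27a: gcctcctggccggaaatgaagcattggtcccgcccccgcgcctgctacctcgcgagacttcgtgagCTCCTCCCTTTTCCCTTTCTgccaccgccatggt
Rpl28: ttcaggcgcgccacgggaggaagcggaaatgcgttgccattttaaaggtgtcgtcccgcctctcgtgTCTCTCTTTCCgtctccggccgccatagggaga
Rps6: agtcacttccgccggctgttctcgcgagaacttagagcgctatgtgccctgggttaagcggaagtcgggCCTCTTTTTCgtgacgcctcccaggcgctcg
Rpl38: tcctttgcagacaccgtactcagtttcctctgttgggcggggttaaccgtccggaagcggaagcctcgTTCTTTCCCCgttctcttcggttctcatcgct

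A pyrimidine run of at least 8 bases in that interval was present in 33 of 59 ribosomal protein promoters (55.9%), against 29.5% of 15669 coding promoters and 27.2% of those whose gene had an H3K4me3 peak. In 13 of the 59 (22%) the run covered the start base, as in Rpl27a, Rpl28, Rps6 and Rpl38 above, against 2.97% of coding promoters. The median longest run was 9 bases against 6. Mitochondrial ribosomal promoters held a run of 8 bases in 30.4% and one over the start in 1.45%. The longest run of the set was 21 bases, at Rpl7a.

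The contrasting promoters are those of Rps27 and its copy Rps27rt, and of Rpl10l, which had an ATAC-seq peak with little H3K4me3. They lie at chr3:90213619-90213718, chr9:114982710-114982809 and chr12:66284372-66284471, each on the minus strand.
Rps27: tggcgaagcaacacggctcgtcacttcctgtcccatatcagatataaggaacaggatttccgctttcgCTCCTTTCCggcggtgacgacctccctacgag
Rps27rt: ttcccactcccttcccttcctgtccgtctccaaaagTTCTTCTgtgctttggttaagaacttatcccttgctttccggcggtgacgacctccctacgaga
Rpl10l: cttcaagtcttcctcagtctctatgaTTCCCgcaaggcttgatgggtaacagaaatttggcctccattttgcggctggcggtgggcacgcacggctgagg

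Rps27 and Rps27rt shared an unbroken stretch of 38 bases that began at or next to the start in both, and the DNA before it differed. The parent had a run of 9 pyrimidines over its start, a fold enrichment of 41.6, a width of 4107 bp and an ATAC-seq peak of 601 bp. The copy had neither kind of peak. Its longest run within the interval searched had 7 bases and was not over its start, where a shorter pyrimidine run of the shared stretch began.

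Short motifs were counted over the whole 300 bases on both strands. The ETS core CCGGAA was present in 29 of 59 promoters (49.2%), against 20% of coding promoters and 27.2% of those with an H3K4me3 peak, and in 56.5% of mitochondrial ribosomal promoters. The SP/KLF core GGGCGG was present in 34 (57.6%), against 48.8% and 66.9%. In proteasome promoters the ETS share was 43.8%. The YY1 core AAGATGGC was present in 5 (8.47%), against 3.25% and 4.29%, and in 17.4% of mitochondrial ribosomal and 9.38% of proteasome promoters.

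The E-box CACGTG was present in 5 promoters (8.47%), Rpl13a, Rpl14, Rpl19, Rpl23 and Rpl34, against 8.08% and 10.2%. The TATA box TATAAA, sought on the sense strand in the 50 bases before the start, was present in 1 (1.69%), that of Rpl22l1, against 3.47% of coding promoters and 1.4% of those with an H3K4me3 peak. The median number of CpG dinucleotides was 21, against 15 in coding promoters and 21 in those with an H3K4me3 peak, and the median GC content 57% against 57.3% and 61.7%. The pyrimidine run, the ETS core and the YY1 core were thus more frequent than in coding promoters with H3K4me3, whereas the SP/KLF core, E-box and CpG number were not. The ETS and YY1 cores were more frequent still in mitochondrial ribosomal promoters, at 56.5% and 17.4%, and the YY1 share here rests on 5 promoters. A match to these letters is a description of the DNA and does not show that a factor binds.

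**Figure D5:**
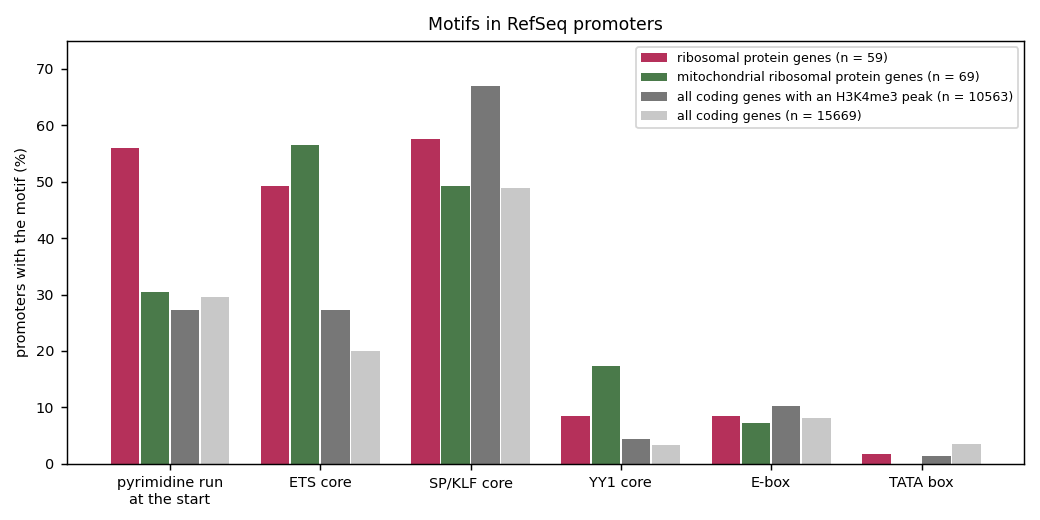
Share of RefSeq promoters (%) with a pyrimidine run of at least 8 bases near the start or with each short motif, for 59 ribosomal protein genes (red), 69 mitochondrial ribosomal protein genes (green), 10563 coding genes with an H3K4me3 peak (dark grey) and 15669 coding genes (light grey). The red bar stands above the other 3 for the pyrimidine run, 55.9% against at most 30.4%, while both ribosomal sets exceed the coding genes for the ETS core.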

How the data were processed

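The authors made the H3K4me3 list with a uniform pipeline for histone ChIP-seq. Its deposited columns hold positions, a fold enrichment (a ratio over the peak caller's background), −log10 p and −log10 q values, a display score and a summit. The aligner and peak threshold of this list are not given in the sources used here. The submitters' processing notes name the build mm10 for both assays and, for ATAC-seq, Bowtie 1.1.2, MACS2 2.1.1.20160309, SAMtools and bedtools 2.27.1. For the ATAC-seq list the authors shifted read ends by 4 bp for the Tn5 cut and kept pooled peaks found in both replicates, and the deposited file holds positions only. The fold enrichment and −log10 q served here to describe and rank peaks within the list.

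Positions were converted to 1-based mm10 coordinates and compared with GENCODE M21, using Python 3.11.15, pandas 2.3.3 and numpy 2.4.6. A peak within 1 Kb of the 5′ end of a gene record was assigned to the gene, the strongest H3K4me3 peak and the widest ATAC-seq peak standing for it. The assignment was tested on simulated data. No statistical test was made, and counts and medians are set beside those of 20807 coding genes. The genes and lists were chosen with earlier results of these data known. Genes are named where they lacked a peak, were among the 5 highest or lowest by width or fold enrichment, were among 8 well-studied subunits or were outside the standard set. Some genes that this rule takes in are not reported here. Any other gene named was chosen after its values were seen. Rps4l, also sought, is not a coding gene in this annotation. The comparisons were repeated with other windows, starts, peak choices and gene sets.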

Additional observations from a re-analysis of the deposited data

How the results depend on the processing

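The H3K4me3 comparisons kept their direction against all coding genes under each alternative tried. The share of ribosomal protein genes with an H3K4me3 peak ran from 92.3% to 98.7% over 8 alternatives, the median width from 3671 to 4031 bp over 11 and the median fold enrichment from 45.4 to 46.1 over 10. The share with an ATAC-seq peak rose from 93.6% to 97.4% with a window of 2 Kb (75.9% in coding genes) and to 97.4% with any coding transcript start (75.2%), which by construction take in more positions, and ran from 92.3% to 97.4% over 8 alternatives. The median ATAC-seq width, below that of coding genes in the comparison reported and in 8 alternatives, was 801 bp against 800 bp for records of 5 Kb or less, so its order turned by 1 bp. That limit, and the exclusion of peaks that cover another coding start, were chosen after the data were seen. A value was called moved where it left the 95% interval of the reported share or median over genes, which only the 2 ATAC-seq shares of 97.4% did. Genes are not replicates, so this interval served as a yardstick and gives no uncertainty between samples. No paired analysis was possible because each list joins both replicates, and for the same reason no replicate could be left out. Peak widths depend on the authors' threshold and on depth, which is unknown.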

Other observations

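The ribosomal protein genes on the X chromosome fall outside the rule, and their values are given here. Rpl10 had an H3K4me3 peak of 3588 bp with a fold enrichment of 39.5 and an ATAC-seq peak of 1049 bp, Rpl36a had 3544 bp, 32.2 and 950 bp, Rpl39 had 4216 bp, 37.8 and 810 bp, and Rps4x had 4068 bp, 39.6 and 512 bp. Among the 948 coding genes of the X chromosome, 485 had an H3K4me3 peak, with a median width of 1934 bp and a median fold enrichment of 24.3. All 4 genes were above both medians of the chromosome. The autosomal paralogs of 3 of them, Rpl10l, Rpl36al and Rpl39l, had 9.74, 38.1 and 4.58, on chromosomes where the median was 31.0.

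On chromosome 17, Rps2 and Rpl3l lie in the same small region, and the Rps2 peak of 6335 bp with a fold enrichment of 45.2 ended before the Rpl3l record, whose own peak had 4.50.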
